A study of Mus musculus with 16 samples.

Results

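The 7 genes Ms4a3, Ms4a4b, Ms4a4c, Ms4a6b, Ms4a6c, Ms4a6d and Ms4a7 belong to the Ms4a family of mouse membrane proteins, and were taken by symbol from the 19505 genes with a platform symbol on the array. All 7 were measured, each by a single probe set, and none was left out by a filter on low values. RNA came from olfactory mucosa cells, dissociated and sorted by fluorescence, of S100a5-tauGFP mice on C57BL/6, a reporter line in which GFP follows S100a5, a calcium-binding protein gene of olfactory sensory neurons. The 24 mice, of both sexes and 7 to 12 weeks old, were kept, as the labels' protocols state, singly in chambers of clean air for 40 hours and, after 26 hours, received pulses of 10 seconds every 20 minutes. The pulses held isoamyl acetate, a banana-scented ester (odor), or filtered air (vehicle). Mice were pooled by 3, and the 8 pools each yielded a pair of libraries, 1 titled GFP+ and 1 titled GFP-, which makes 4 libraries in each of 4 groups: odor titled GFP+, odor titled GFP-, vehicle titled GFP+ and vehicle titled GFP-.

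Ms4a proteins cross the membrane several times and are best known from leukocytes, where Ms4a1 is the B cell antigen CD20 and Ms4a2 is the beta chain of the high-affinity IgE receptor. In the olfactory system several Ms4a proteins have been described as chemoreceptors of necklace neurons, a small set of sensory neurons whose axons form a ring of glomeruli around the caudal olfactory bulb. Necklace neurons lack the usual cyclic AMP pathway and carry instead the receptor guanylyl cyclase Gucy2d, the cyclic GMP channel subunit Cnga3, the phosphodiesterase Pde2a and the carbonic anhydrase Car2. Marker lists of these neurons and of leukocyte types are therefore given beside the Ms4a genes, and what part either cell type had in the Ms4a signal was not tested.

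S100a5 goes against the titles: in 8 of 8 pools it was lower in the titled GFP+ library, with differences of -1.25 (limma adjusted p = 0.000222) in odor and -1.18 (SE 0.21, adjusted p = 0.000442) in vehicle. The cell type field of the labels also gives each sample the GFP sign opposite to its title. Directions below follow the titles, as "titled GFP+" and "titled GFP-", and if instead the cell type field is right, each sort difference changes sign. All values are deposited log2 signals, on which a difference of 1 is a factor of 2, and levels are compared between libraries of 1 probe set and never between probe sets. The negative control probe sets of an array had medians of 5.15 to 5.67. The mean log2 signal of 16 canonical olfactory transduction genes lay between 15.7 and 16.1 in libraries titled GFP+ and between 16.2 and 16.3 in those titled GFP-; among them Cngb1, a subunit of the olfactory cyclic nucleotide channel, was dim, at 5.40 to 6.22 in libraries titled GFP+ and 5.15 to 6.53 in those titled GFP-.

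The promoter windows of 5 Ms4a genes with large sort differences are shown for comparison, since these genes lie in 1 cluster on chromosome 19 and moved together. Each runs from 250 bases before to 50 after the gene's start, 5′ to 3′ on the gene's strand, from RefSeq on GRCm38.p6. Capitals mark GAGGAA, a sequence bound by PU.1, the leukocyte transcription factor encoded by Spi1, searched on both strands. Other sequences with GGAA, such as aggaag in the Ms4a6b and Ms4a6c windows, were not searched for and are unmarked. The windows are chr19:11640802-11641101 (minus strand) for Ms4a3, chr19:11443308-11443607 (plus strand) for Ms4a4b, chr19:11407411-11407710 (plus strand) for Ms4a4c, chr19:11518309-11518608 (plus strand) for Ms4a6b and chr19:11469118-11469417 (plus strand) for Ms4a6c.
Ms4a3: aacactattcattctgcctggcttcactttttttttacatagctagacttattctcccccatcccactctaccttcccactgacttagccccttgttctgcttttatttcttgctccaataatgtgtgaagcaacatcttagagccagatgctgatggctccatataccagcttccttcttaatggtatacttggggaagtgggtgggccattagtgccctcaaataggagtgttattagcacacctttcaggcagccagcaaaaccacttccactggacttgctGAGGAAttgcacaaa
Ms4a4b: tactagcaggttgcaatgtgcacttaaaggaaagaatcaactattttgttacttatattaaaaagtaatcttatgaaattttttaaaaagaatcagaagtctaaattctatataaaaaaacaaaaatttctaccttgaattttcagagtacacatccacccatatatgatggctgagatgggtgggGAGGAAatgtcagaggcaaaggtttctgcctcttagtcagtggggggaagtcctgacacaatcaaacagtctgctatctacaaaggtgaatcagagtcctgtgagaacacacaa
Ms4a4c: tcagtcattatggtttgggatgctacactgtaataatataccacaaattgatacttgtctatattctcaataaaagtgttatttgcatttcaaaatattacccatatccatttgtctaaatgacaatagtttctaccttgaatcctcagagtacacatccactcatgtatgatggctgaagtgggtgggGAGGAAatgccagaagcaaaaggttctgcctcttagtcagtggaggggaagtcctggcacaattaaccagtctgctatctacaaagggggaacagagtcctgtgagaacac
Ms4a6b: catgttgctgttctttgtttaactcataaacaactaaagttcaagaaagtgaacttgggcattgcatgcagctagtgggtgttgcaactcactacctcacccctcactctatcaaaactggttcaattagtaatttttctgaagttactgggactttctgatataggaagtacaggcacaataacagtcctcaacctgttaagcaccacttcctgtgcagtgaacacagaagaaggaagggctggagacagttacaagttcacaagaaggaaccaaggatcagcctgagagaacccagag
Ms4a6c: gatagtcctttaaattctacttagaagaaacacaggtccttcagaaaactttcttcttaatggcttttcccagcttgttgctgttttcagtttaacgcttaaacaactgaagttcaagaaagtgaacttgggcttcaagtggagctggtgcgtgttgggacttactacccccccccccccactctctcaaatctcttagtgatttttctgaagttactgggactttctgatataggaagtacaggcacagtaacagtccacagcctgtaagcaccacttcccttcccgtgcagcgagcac

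GAGGAA stood in the windows of Ms4a4b and Ms4a4c, before the start, in that of Ms4a3, after the start, and in 1 of the 2 windows of Ms4a7. That is 4 of the 7 windows listed for 6 of the Ms4a genes, against 28.3% of 32851 windows of all genes, and 2 of 12 windows of the other Ms4a and Tmem176 genes. The C/EBP core TTGCNNAA, also searched on both strands, stood in the Ms4a3 window only among the 7, directly after GAGGAA with no shared base, against 10.8% of all windows and 2 of 12 of the other family windows. The Ms4a4b and Ms4a4c windows were 79% identical over 300 aligned bases and those of Ms4a6b and Ms4a6c 65.7%, while the other 19 pairs of windows ranged from 53.7% to 61.7%. A match of letters is a description of the window and not a binding site.

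The sort comparison asks which Ms4a genes differ between the titled fractions of the same mice. All 7 were higher in libraries titled GFP+, in odor and in vehicle pools alike. In odor the differences ran from 1.03 for Ms4a7 to 4.22 for Ms4a4c with a median of 2.97, and in vehicle from 1.20 for Ms4a7 to 4.43 for Ms4a6c with a median of 3.30, against medians of -0.14 in odor and -0.13 in vehicle over all 22206 tested probe sets. With values under an array's median negative control raised to it, the Ms4a medians were 1.88 in both, since 4 of the 7 genes lay under it in all libraries titled GFP-. Of those probe sets 11% were called higher and 9.86% lower in odor, and 10.2% higher and 7.16% lower in vehicle (limma, Benjamini-Hochberg adjusted p of 0.05 as threshold). The groups did not overlap for 5 of 7 Ms4a genes in odor, where 10.5% of probe sets lay higher without overlap, and for 7 of 7 in vehicle, where 11.3% did. In these bulk sorts fewer cells of a type and less RNA per cell cannot be told apart.

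**Figure D1:**
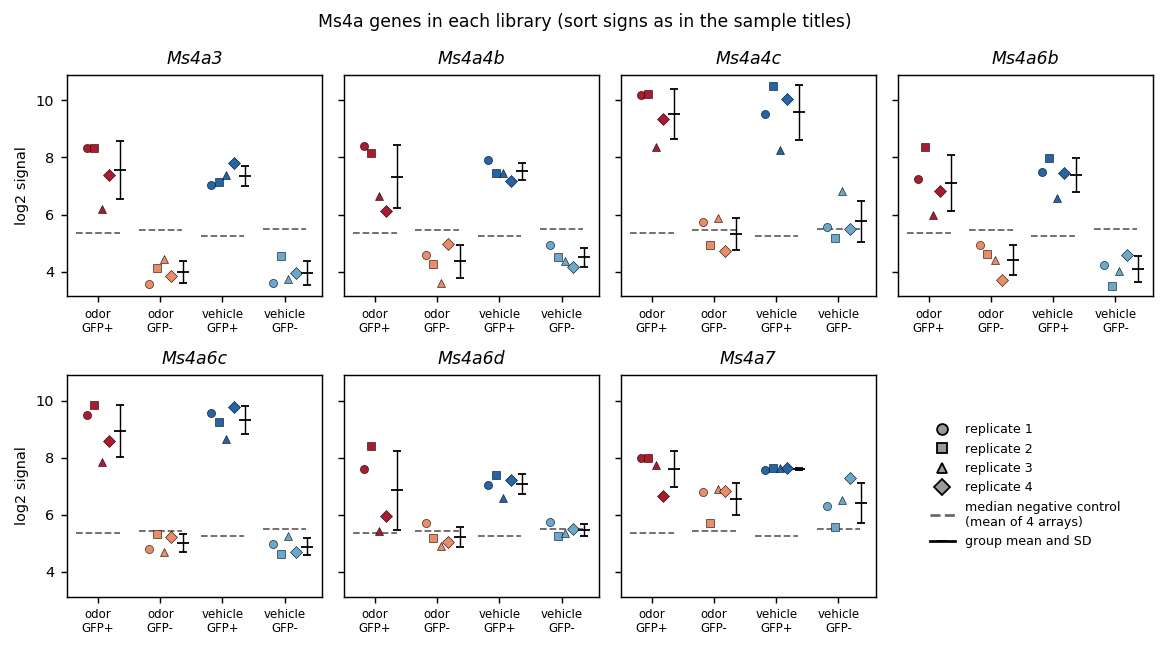
Log2 signal (vertical axis) of the 7 Ms4a genes in each library, with 4 groups along the horizontal axis; symbols are replicates, bars are the group mean and SD, and dashed lines are the median negative control of the group's arrays. Libraries titled GFP+ stand above those titled GFP-, with overlap in odor for Ms4a6d and Ms4a7, most widely for Ms4a6c and Ms4a4c and least for Ms4a6d and Ms4a7.

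Ms4a3 marks precursors of granulocytes and monocytes in bone marrow. It read 8.33, 8.35, 6.18 and 7.37 in odor libraries titled GFP+ (replicates 1 to 4), against 3.55, 4.12, 4.43 and 3.86 in odor libraries titled GFP-. Vehicle libraries titled GFP+ read 7.03, 7.14, 7.40 and 7.81, against 3.59, 4.56, 3.74 and 3.94 in vehicle libraries titled GFP-. The lowest library titled GFP+, odor replicate 3, was still above every library titled GFP-, and all 8 libraries titled GFP- lay under their array's median negative control. The difference was 3.57 in odor (adjusted p = 1.72e-06) and 3.39 in vehicle (SE 0.38, adjusted p = 3.39e-06). Counted against the median negative control, Ms4a3 was at least 4.31-fold higher in odor and at least 3.57-fold higher in vehicle. Such a bound sets each dim value to the median negative control of its array, and it is used for the 4 Ms4a genes whose libraries titled GFP- were all under that level. It is an estimate from group means at that level, without sampling error, and a higher level of background lowers it. With values raised to the median GC background probe set instead, the Ms4a3 difference was 1.63 in odor and 1.40 in vehicle.

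Ms4a4b is a modulator of T cell activation. It read 8.39, 8.16, 6.65 and 6.13 in odor libraries titled GFP+, against 4.59, 4.28, 3.61 and 4.97 in those titled GFP-. In vehicle it read 7.92, 7.46, 7.47 and 7.19 in libraries titled GFP+, against 4.93, 4.52, 4.39 and 4.15 in those titled GFP-. Replicates 3 and 4 of odor were the lowest libraries titled GFP+, and no groups overlapped. Its difference was 2.97 in odor (adjusted p = 3.47e-05) and 3.01 in vehicle (SE 0.41, adjusted p = 3.22e-05). Against the median negative control this was at least 3.69-fold in odor and 4.01-fold in vehicle, and a higher background level lowers both. The 4 vehicle pools agreed closely on Ms4a4b, with differences of 2.94 to 3.09, whereas the odor pools spread from 1.16 to 3.88.

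Ms4a4c, a close relative of Ms4a4b, read 10.18, 10.23, 8.36 and 9.36 in odor libraries titled GFP+, against 5.73, 4.92, 5.87 and 4.73 in odor libraries titled GFP-. Vehicle libraries titled GFP+ held 9.53, 10.51, 8.27 and 10.04, against 5.56, 5.16, 6.82 and 5.49 in vehicle libraries titled GFP-. Replicate 3 was the lowest library titled GFP+ and the highest titled GFP- in both treatments. The difference was 4.22 in odor (adjusted p = 4.94e-06) and 3.83 in vehicle (SE 0.49, adjusted p = 1.59e-05), and the vehicle pools spanned 1.45 to 5.35. The signals of Ms4a4c in libraries titled GFP- reached the median negative control in 2 of 4 odor and 2 of 4 vehicle libraries.

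Ms4a6b, described as a regulator of T cell responses, read 7.25, 8.36, 5.99 and 6.81 in odor libraries titled GFP+, against 4.93, 4.61, 4.40 and 3.71 in those titled GFP-. In vehicle it read 7.50, 8.0, 6.58 and 7.47 in libraries titled GFP+, against 4.23, 3.49, 4.03 and 4.60 in those titled GFP-. Replicate 3 was again the lowest titled GFP+ library of each treatment, and no groups overlapped. The difference was 2.69 in odor (adjusted p = 0.00011) and 3.30 in vehicle (SE 0.42, adjusted p = 1.30e-05). Against the median negative control this was at least 3.14-fold in odor and 3.68-fold in vehicle, and a higher background level lowers both.

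Ms4a6c is expressed by monocytes and other myeloid cells. It read 9.50, 9.85, 7.83 and 8.60 in odor libraries titled GFP+, against 4.80, 5.34, 4.69 and 5.23 in odor libraries titled GFP-. In vehicle it read 9.58, 9.24, 8.66 and 9.78 in libraries titled GFP+, against 4.97, 4.64, 5.26 and 4.69 in libraries titled GFP-. The gap was wide in every pool: 3.15 to 4.70 in odor and 3.40 to 5.09 in vehicle. The fitted difference was 3.93 in odor (adjusted p = 2.03e-07) and 4.43 in vehicle (SE 0.35, adjusted p = 4.92e-08). Against the median negative control this was at least 11.3-fold in odor and 14-fold in vehicle, and a higher background level lowers both.

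Ms4a6d, a gene of macrophages and other myeloid cells, had a smaller difference, which in odor came mostly from replicates 1 and 2. It read 7.62, 8.42, 5.45 and 5.98 in odor libraries titled GFP+, against 5.70, 5.19, 4.92 and 5.06 in odor libraries titled GFP-. In vehicle it read 7.05, 7.40, 6.60 and 7.23 in libraries titled GFP+, against 5.74, 5.25, 5.38 and 5.51 in libraries titled GFP-. The odor groups overlapped, since replicate 3 titled GFP+ lay under replicate 1 titled GFP-, while the vehicle groups did not. The difference was 1.65 in odor (adjusted p = 0.0159) and 1.60 in vehicle (SE 0.46, adjusted p = 0.0212). Every vehicle pool was higher in the library titled GFP+, by 1.22 to 2.15. The SE draws on the spread of all groups, which was largest in odor libraries titled GFP+ (SD 1.39). The odor call was lost without odor replicate 1 (1.55, adjusted p = 0.0623) or 2 (1.12, adjusted p = 0.0791). The vehicle call was lost without vehicle replicate 1 (1.70, adjusted p = 0.0654), 2 (1.42, adjusted p = 0.123) or 4 (1.56, adjusted p = 0.0882), with quantile normalization (1.30, adjusted p = 0.0536), and with values raised to the GC background (1.13, adjusted p = 0.119); the last setting also ended the odor call (1.01, adjusted p = 0.137).

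Ms4a7 accompanies macrophage maturation and marks some tissue macrophages. It read 7.99, 7.99, 7.74 and 6.67 in odor libraries titled GFP+, against 6.81, 5.72, 6.91 and 6.83 in odor libraries titled GFP-. In vehicle it read 7.57, 7.62, 7.63 and 7.65 in libraries titled GFP+, against 6.30, 5.56, 6.53 and 7.28 in libraries titled GFP-. Ms4a7 was above the median negative control in all 16 libraries. Odor replicate 4 was the only pool in which any of the 7 genes was lower in the library titled GFP+, at -0.16. The difference was 1.03 in odor (adjusted p = 0.0426) and 1.20 in vehicle (SE 0.34, adjusted p = 0.0217). The odor call was lost without odor replicate 1 (0.98, adjusted p = 0.140), 2 (0.62, adjusted p = 0.272) or 3 (1.10, adjusted p = 0.0827), and with the pool as a block (1.03, adjusted p = 0.0542). It was also lost with median centring (0.66, adjusted p = 0.0827), quantile normalization (0.74, adjusted p = 0.131) and a floor at the median negative control (adjusted p = 0.0522). The vehicle call was lost without vehicle replicate 1 (1.18, adjusted p = 0.0928), 2 (0.91, adjusted p = 0.133) or 3 (1.24, adjusted p = 0.0696) and with quantile normalization (0.89, adjusted p = 0.0735).

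**Figure D2:**
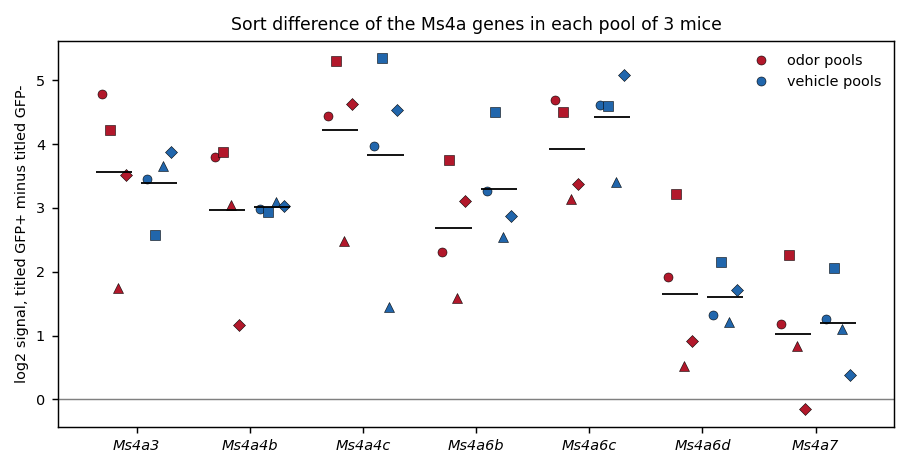
Difference in log2 signal between the 2 libraries of a pool, titled GFP+ minus titled GFP- (vertical axis), for each of the 7 Ms4a genes; points are pools of 3 mice and bars the mean of 4 pools. Ms4a6c was at least 3.15 in every pool, and the only pool below 0 is odor replicate 4 for Ms4a7, at -0.16.

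A stricter measure of background limits these levels. The 95th percentile of the negative controls of an array lay between 9.39 and 10.1, above most Ms4a signals, and with all values raised to it 0 of the 7 genes were called in either treatment (924 probe sets called in odor and 839 in vehicle). Under it Ms4a4c differed by 0.36 in odor (adjusted p = 0.592) and 0.26 in vehicle (adjusted p = 0.328), Ms4a6c by 0.22 in odor (adjusted p = 0.592) and -0.07 in vehicle (adjusted p = 0.732), and the other 5 genes lay at the floor throughout.

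Of the 4 necklace neuron genes, 1 was called in each sort comparison, with list medians of 0.26 in odor and 0.41 in vehicle. Gucy2d lay between 3.33 and 3.59 in odor libraries titled GFP+ and between 3.14 and 3.33 in those titled GFP-. In vehicle it lay between 3.33 and 3.94 in libraries titled GFP+ and between 3.01 and 3.47 in those titled GFP-. Cnga3 lay between 3.08 and 3.58 in libraries titled GFP+ and between 3.15 and 3.70 in those titled GFP-. These 2 defining genes were thus under the median negative control in all 16 libraries.

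Car2 was bright in both sorts. It averaged 13.74 ± 0.32 in odor libraries titled GFP+ and 13.43 ± 0.18 in those titled GFP- (SD, n = 4 each), a difference of 0.30 (limma adjusted p = 0.254). In vehicle it averaged 13.77 ± 0.27 in libraries titled GFP+ and 13.28 ± 0.24 in those titled GFP- (SD, n = 4 each), a difference of 0.49 (limma adjusted p = 0.0759). Pde2a, a gene that other cell types also express, was the gene called. It read 11.02, 10.48, 9.89 and 10.15 in odor libraries titled GFP+, against 6.93, 6.67, 6.93 and 6.99 in those titled GFP-. In vehicle Pde2a read 10.22, 10.57, 9.95 and 9.75 in libraries titled GFP+, against 6.62, 6.44, 6.88 and 7.18 in those titled GFP-. Its difference was 3.50 in odor (adjusted p = 4.71e-09) and 3.34 in vehicle (SE 0.23, adjusted p = 9.66e-09), with no overlap.

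**Figure D3:**
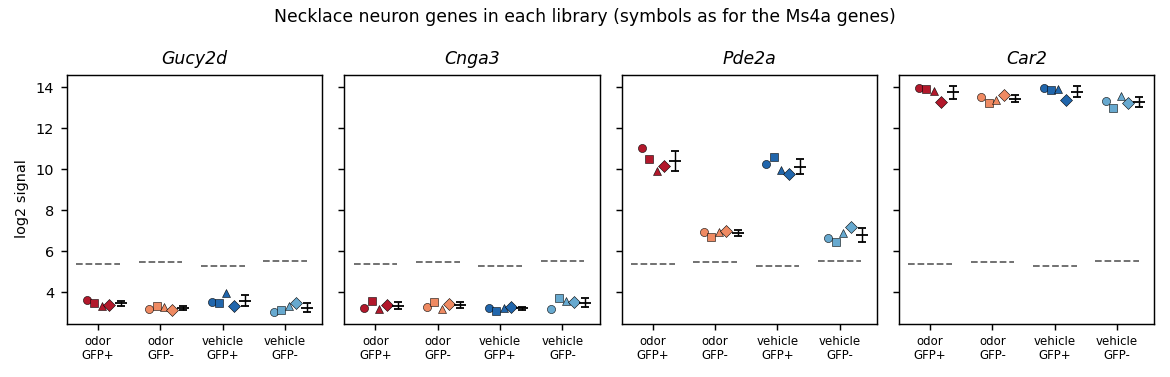
Log2 signal (vertical axis) of the 4 necklace neuron genes in each library, by group along the horizontal axis, with symbols, bars and dashed lines as for the Ms4a genes. Gucy2d and Cnga3 lie under the negative controls everywhere, Car2 is between 12.99 and 13.94 over all libraries, and Pde2a is higher in libraries titled GFP+.

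Leukocyte markers were higher in the libraries titled GFP+ beside the Ms4a genes. The 5 pan-leukocyte genes were all called in both treatments, with medians of 5.70 in odor and 5.97 in vehicle; Spi1 differed by 7.28 in vehicle and Ptprc, the leukocyte antigen CD45, by 5.55. The level of that list, the mean of its 5 log2 signals, ranged from 11.3 to 13.2 in odor libraries titled GFP+, against 5.82 to 6.71 in odor libraries titled GFP-. In vehicle that mean ranged from 11.9 to 12.6 in libraries titled GFP+, against 5.76 to 6.51 in libraries titled GFP-.

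All 11 measured neutrophil genes were called, with medians of 8.76 in odor and 8.57 in vehicle, where Retnlg differed by 9.44 and Ngp, a granule protein gene, by 9.42. The neutrophil mean ranged from 13.2 to 15.3 in odor libraries titled GFP+, against 5.35 to 6.58 in those titled GFP-, and from 13.5 to 14.2 in vehicle libraries titled GFP+, against 5.44 to 6.24 in those titled GFP-. All 6 granulocyte precursor genes were called as well, with medians of 3.84 in odor and 3.68 in vehicle; the granule enzymes Mpo and Elane differed by 6.94 and 6.55 in vehicle. So were all 6 monocyte genes, with medians of 3.66 in odor and 3.56 in vehicle, among them Ly6c2 (9.14 in vehicle) and the chemokine receptor gene Ccr2 (6.08 in vehicle).

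Macrophage genes had smaller measured differences: 6 of 11 measured were called higher in odor and 8 of 11 in vehicle, with medians of 1.07 and 1.44. Csf1r, the receptor for the growth factor CSF1, differed by 3.55 in odor (adjusted p = 1.11e-05) and 3.29 in vehicle (adjusted p = 2.87e-05). The complement gene C1qb differed by 1.99 in odor (adjusted p = 0.00396) and 2.33 in vehicle (adjusted p = 0.00111). Mrc1 at 1.14 and Fcgr1 at 0.46 in vehicle did not pass. The macrophage mean lay between 6.14 and 7.28 in odor libraries titled GFP+, against 5.09 to 5.78 in those titled GFP-, and between 6.67 and 6.93 in vehicle libraries titled GFP+, against 4.71 to 5.78 in those titled GFP-. In libraries titled GFP- that mean was near the median negative controls, where a difference can be understated.

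Of the lymphoid and other lists, 8 of 10 T and NK cell genes were called in odor and 7 of 10 in vehicle, 3 of 6 and 4 of 6 B cell genes, 3 of 6 mast cell and basophil genes in each treatment, and 4 of 7 dendritic cell genes in each. Cd3e, a subunit of the T cell receptor complex, differed by 2.51 in vehicle, and Jchain, of antibody-secreting cells, by 5.89. Cpa3, a mast cell and basophil protease, differed by 2.96 in odor and 3.41 in vehicle. Tpsb2, at -0.26 in odor and -0.42 in vehicle, and Fcer1a, at 0.15 and 0.21, did not pass. Tpsb2 lay under the median negative control in every library. Fcer1a was above it only in 1 odor and 1 vehicle library titled GFP+. In the T and NK cell list Cd4 at 0.61 did not pass. Of the 16 canonical olfactory transduction genes 0 were called higher and 3 lower in each treatment, with medians of -0.24 in odor and -0.18 in vehicle.

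**Figure D4:**
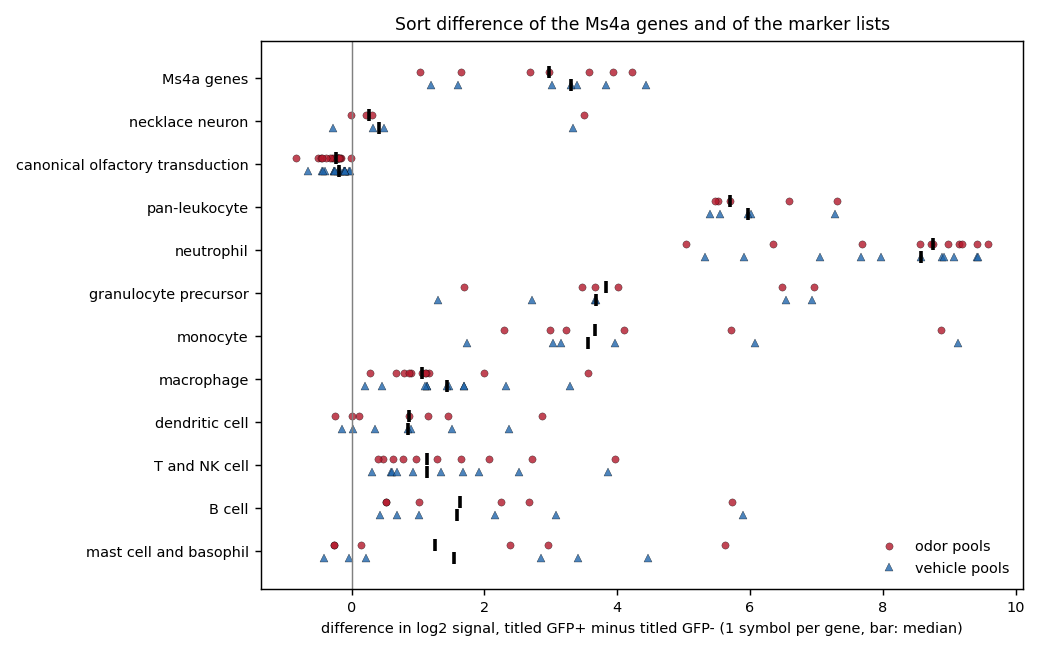
Difference in log2 signal, titled GFP+ minus titled GFP- (horizontal axis), of each measured gene in the Ms4a set and in 11 marker lists (rows); circles are odor and triangles vehicle estimates, and black bars are medians. The neutrophil and pan-leukocyte rows lie farthest to the right, the canonical olfactory transduction row lies at or below 0, and of the necklace neuron row only Pde2a stands above 3.

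The other family members were set in the order of the chromosome. RefSeq lists 21 Ms4a genes in a row on chromosome 19, of which 18 were measured. In the 10 genes from Ms4a7 to Ms4a3 at the far end, 9 were measured and 8 of these were called higher in both treatments: the 7 Ms4a genes described above, chosen with results of these data known, and Ms4a2. Ms4a4d, which lies between Ms4a6b and Ms4a6d in that row, was not called, at 0.04 in odor (adjusted p = 0.916) and -0.10 in vehicle (adjusted p = 0.798). Of the 11 genes before them 9 were measured, and 1 was called higher and 1 lower in odor and 2 higher in vehicle.

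Ms4a2 differed by 1.19 in odor (adjusted p = 0.00299) and 1.01 in vehicle (adjusted p = 0.0113), with 15 of 16 libraries under the median negative control. Ms4a8a, reported in alternatively activated macrophages, differed by 2.01 in odor (adjusted p = 1.20e-05) and 1.42 in vehicle (adjusted p = 0.000497). Ms4a1 differed by 0.57 in odor (adjusted p = 0.127) and 1.56 in vehicle (adjusted p = 0.000203). The change of its sort difference with odor was -0.99 (SE 0.36, adjusted p = 0.99994), so a difference between treatments was not shown. Ms4a18 differed by -0.84 in odor (adjusted p = 0.00339) and -0.33 in vehicle (adjusted p = 0.257) at signals under the median negative control in all 16 libraries. Ms4a5, Ms4a10, Ms4a13, Ms4a15, Ms4a19 and Ms4a20 were not called in either treatment.

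The related genes Tmem176a and Tmem176b, known from dendritic cells and other myeloid cells, lie outside the cluster. Tmem176b averaged 11.42 ± 0.59 in odor libraries titled GFP+ and 6.37 ± 0.45 in those titled GFP- (SD, n = 4 each). In vehicle it averaged 11.27 ± 0.35 in libraries titled GFP+ and 6.47 ± 0.34 in those titled GFP- (SD, n = 4 each). Its difference was 5.05 in odor (limma adjusted p = 7.67e-10) and 4.80 in vehicle (limma adjusted p = 1.49e-09). Tmem176a differed by 2.94 in odor (adjusted p = 2.07e-08) and 2.67 in vehicle (adjusted p = 7.47e-08).

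**Figure D5:**
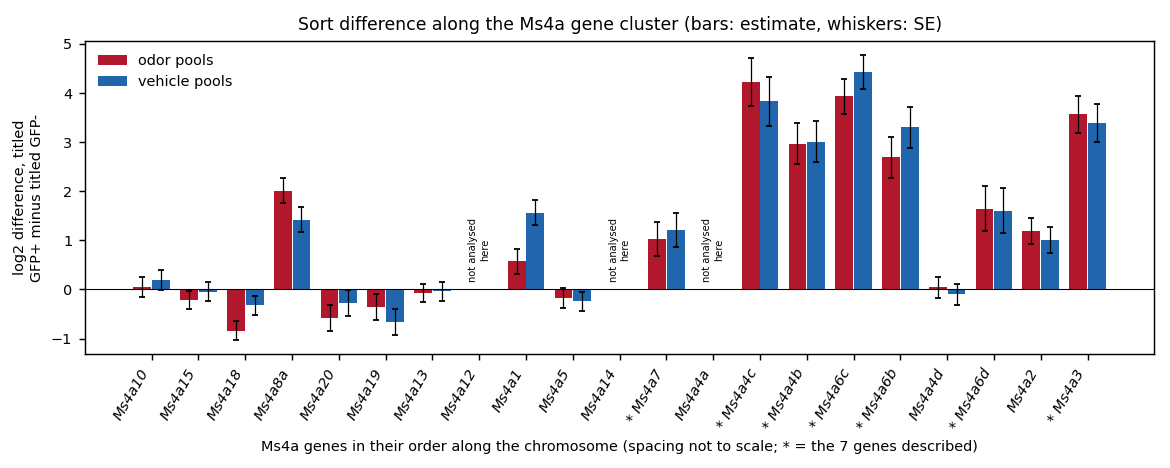
Difference in log2 signal, titled GFP+ minus titled GFP- (vertical axis), of the Ms4a genes in their order along chromosome 19 (horizontal axis), red for odor and blue for vehicle, with bars as estimates and whiskers as SE. The stretch from Ms4a7 to Ms4a3 is above 0 in every measured gene but Ms4a4d, and most genes before it lie near 0.

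The odor comparison asks whether exposure to isoamyl acetate changed the Ms4a genes within a sort. None was called in either sort, where limma called 2 of 22206 probe sets (0.00901%) in libraries titled GFP+ and 4 (0.018%) in those titled GFP-, with 1072 and 733 at an unadjusted p under 0.05. With the replicate number as a block, an alternative chosen after seeing the data, limma called 4 probe sets in each sort and 0 of the 7 Ms4a genes. In libraries titled GFP+ the odor minus vehicle difference ran from -0.37 for Ms4a6c to 0.21 for Ms4a3, with a median of -0.18. The 95% interval was -1.11 to 0.37 for Ms4a6c and -0.59 to 1.02 for Ms4a3, and changes within these intervals are not excluded. In libraries titled GFP- the difference ran from -0.44 for Ms4a4c (95% interval -1.48 to 0.59) to 0.33 for Ms4a6b (-0.55 to 1.20).

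No change of the sort differences with treatment was called by the interaction test, which called 1 probe set in all (0.0045%, 653 at an unadjusted p under 0.05) and 0 of the 7 Ms4a genes; with the replicate number as a block it called 2 and 0. The largest interaction among them was -0.61 for Ms4a6b (95% interval -1.85 to 0.63), then -0.50 for Ms4a6c (-1.54 to 0.55). The 2 sort comparisons contrast different libraries. They are not independent, since the fit gives each gene a single estimate of spread from all groups, odor and vehicle alike.

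The spread among libraries titled GFP+ was larger in odor than in vehicle for 6 of 7 genes by their SD, with Ms4a4c the exception. The share of all probe sets with a larger SD in odor was not computed. The 7 genes come from the same libraries, so the count says nothing particular about them. Ms4a6d had an SD of 1.39 in odor and 0.35 in vehicle (n = 4 each), and Ms4a7 had 0.63 in odor and 0.04 in vehicle. Odor replicate 3 was the lowest of the 8 libraries titled GFP+ for 4 of the 7 genes, odor replicate 4 for 2 and vehicle replicate 3 for 1. Odor replicate 3 was also the lowest odor library titled GFP+ for the neutrophil, monocyte, granulocyte precursor, mast cell and basophil, and pan-leukocyte lists, and odor replicate 4 for the macrophage, T and NK cell, B cell, dendritic cell and necklace neuron lists. Without odor replicate 3 the sort difference in odor called 6 of the 7 genes, and Ms4a3 differed by 4.17.

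Across the 8 libraries titled GFP+ the Ms4a genes varied together in part. Pearson's r between pairs of them ranged from 0.21 to 0.91 over 21 pairs, with a median of 0.70. The pairs Ms4a6b with Ms4a6d (r = 0.91) and Ms4a6c with Ms4a6d (r = 0.91) were closest, and Ms4a7 stood apart from Ms4a4c (r = 0.21), Ms4a3 (r = 0.29) and Ms4a6b (r = 0.30). The libraries share the sort and the array-wide scaling, and r is a description of them.

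Each gene was also set against the mean level of 11 marker lists in the same 8 libraries, 77 relations in all with exact two-sided permutation tests. The tests run over all orders of the 8 libraries and treat them as exchangeable, although they are odor and vehicle libraries. A single one passed Benjamini-Hochberg adjustment: Ms4a4b with the macrophage list, with r = 0.94 (exact permutation p = 0.000546, adjusted p = 0.0420) and rho = 0.88 (exact permutation p = 0.00724, adjusted p = 0.112). Without the 2 libraries farthest from the list's median, r was 0.82. Ms4a3 came closest to the granulocyte precursor list, with r = 0.93 (exact permutation p = 0.00164, adjusted p = 0.0630) and rho = 0.79 (exact permutation p = 0.0279, adjusted p = 0.165), and r was 0.78 without 2 libraries. Ms4a7 had r = 0.90 with the macrophage list (exact permutation p = 0.00570, adjusted p = 0.0824) and rho = 0.55 (exact permutation p = 0.171, adjusted p = 0.313), and r was 0.54 without 2 libraries. With the necklace neuron list the 7 genes had r of 0.30 to 0.82, none passing, and r was 0.62 to 0.97 without replicate 4 of odor and of vehicle, the 2 libraries farthest from that list's median. The highest on all 8 was Ms4a4b, with r = 0.82 (exact permutation p = 0.0125, adjusted p = 0.0824), rho = 0.86 (exact permutation p = 0.0107, adjusted p = 0.138) and r = 0.94 without those 2, and on the 6 it was Ms4a3, with r = 0.97 against 0.49 on all 8. Of the 4 genes in that list, Gucy2d and Cnga3 lay under the median negative control in all 8 libraries. Car2 was low in both left-out libraries, at 13.26 in odor and 13.36 in vehicle. What part necklace neurons had in these relations was not tested. With the monocyte list the 7 genes had r of 0.05 to 0.85, none passing, and 0.24 to 0.86 without 2 libraries. With the means of odor and of vehicle libraries taken out, 6 of the 77 relations passed: 2 with the monocyte list, 2 with the granulocyte precursor list, 1 with the macrophage list and 1 with the T and NK cell list. There the permutations still ran across both treatments and ignored the means taken out. Those p-values are not exact, and the larger count is not a stronger result.

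The genes most like each Ms4a gene over these 8 libraries, after taking out the mean of each treatment, were sought among 11600 genes. These candidates lay above the median negative control in all 8 libraries titled GFP+, whatever their level in libraries titled GFP-. The 3 nearest to each gave 21 different genes with r between 0.96 and 0.99. Ms4a3 was nearest to Ppil4, Usp39 and Fcgr2b, Ms4a4b to Ly75, H2bc3 and Hmces, and Ms4a4c to Gapvd1, Sgms2 and Haus8. Ms4a6b was nearest to Jdp2, Zc3h15 and Olfr1494, Ms4a6c to Rcn1, Ctsc and Nrros, Ms4a6d to Cflar, Ccr2 and Kif20b, and Ms4a7 to 4930430F08Rik, Wdr55 and Zfp346. Of these 21 genes, 10 were called higher in libraries titled GFP+ in both treatments and 9 were called in neither. The choice of candidates favours genes higher in libraries titled GFP+, and the share called among the 11600 was not computed. The count therefore says nothing particular about the Ms4a genes. Fcgr2b, an inhibitory receptor for antibody, differed by 4.42 in odor (adjusted p = 1.35e-07) and 4.64 in vehicle (adjusted p = 7.66e-08). Ctsc, a protease that activates granule enzymes, differed by 4.30 in odor (adjusted p = 2.96e-06) and 4.86 in vehicle (adjusted p = 7.66e-07). Olfr1494, an odorant receptor gene, differed by 4.34 in odor (adjusted p = 1.16e-06) and 4.08 in vehicle (adjusted p = 2.52e-06). Ppil4, which had the highest r of all 21, differed by 0.04 in odor (adjusted p = 0.843) and -0.03 in vehicle (adjusted p = 0.893). These names are a description of 8 libraries.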

How the data were processed

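The authors deposited log2 signals of Clariom S mouse arrays, a single value for every probe set of an array. The submitters' processing notes name Affymetrix Expression Console; its version, background correction and normalization were not given in the sources used here. Per the labels' protocols, biotinylated cRNA came from 50 to 100 ng of total RNA. Of 28846 probe sets, 6640 controls were left out, which leaves 22206, of which 19572 have 1 gene symbol in the platform annotation. A gene with several probe sets (55 genes, none of the 7) was represented by the one with the highest mean. Groups come from the sample titles.

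Values were tested as deposited with limma 3.58.1 (R 4.3.3): lmFit on 4 group means of all 16 arrays and eBayes (12 residual and 4.49 prior degrees of freedom), with Benjamini-Hochberg adjustment over all 22206 probe sets and a threshold of 0.05. The fit was tested on simulated data. Replicates of a group are separate pools of mice, and the number of arrays limits the precision. Libraries of 1 pool deviated together from their group means (r = 0.16 to 0.40, each above its r with other pools), so the pool pairs the sorts. Odor and vehicle libraries of equal replicate number also correlated, at 0.17 to 0.28 in libraries titled GFP+ and 0.07 to 0.41 in those titled GFP-. Replicate 4 was the exception, with a higher r to another number: 0.17 against 0.19 in libraries titled GFP+ and 0.07 against 0.19 in those titled GFP-. Nothing in the labels says what the number stands for, and it was also tried as a block. With the pool as a block, limma called 5787 probe sets and 6 of the 7 Ms4a genes in the odor sort comparison, and 4675 and 7 in vehicle.

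Marker lists were summarised by the mean of their measured genes' log2 values. Promoter windows and gene order come from RefSeq on GRCm38.p6; windows were aligned globally. The genes, lists and motifs were chosen with earlier results of these data known. Named genes are the 7 Ms4a genes, the rest of the family, S100a5, the necklace neuron list, up to 4 called and up to 2 uncalled genes of each other list by the size of the vehicle sort difference, and the 3 genes most like each Ms4a gene. Cngb1 is named outside this rule, for its dim signal. The closing section gives alternatives in scaling, floor, filter, block, variance trend and left-out pools.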

Additional observations from a re-analysis of the deposited data

Results flagged for a closer look

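In 44 groups of 4 libraries tested for a value far from the other 3, of which chance gives about 1 in 20, 3 values stood out. Ms4a7 was 5.72 in odor replicate 2 titled GFP-, below the other 3 libraries of that group, with a gap of 0.91 of the group's range. Car2 was 13.26 in odor replicate 4 titled GFP+ (gap 0.84 of the range) and 13.36 in vehicle replicate 4 titled GFP+ (gap 0.87), each below the other 3 libraries of its group. The causes were not tested.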

How the results depend on the processing

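Ms4a3, Ms4a4b, Ms4a4c, Ms4a6b and Ms4a6c kept their direction and call in both sort comparisons under median centring, quantile normalization, centring on canonical olfactory transduction genes, the pool block, a filter on dim probe sets, an eBayes trend, floors at the median negative control and at the GC background (the last chosen after seeing the data), and without each pool. They lost their calls under the floor at the 95th percentile of negative controls, where 0 Ms4a genes and 924 probe sets in odor, and 0 and 839 in vehicle, were called, Ms4a6c turned to -0.0718 in vehicle, and Ms4a3, Ms4a4b and Ms4a6b lay at the floor. Signal over background limits these levels. The filter kept probe sets above the median negative control in at least 4 libraries. Ms4a3, Ms4a4b, Ms4a6b and Ms4a6c passed it only through libraries titled GFP+, so their calls under it are no separate support. Median centring moved the median of all probe sets to -0.50 in both sort comparisons and called 15554 probe sets in odor (1875 higher) and 15630 in vehicle (1762 higher). The share called higher was 52.8% in odor and 58.7% in vehicle as deposited, 12.1% and 11.3% with median centring, 41.4% and 42.1% with quantile normalization, and 86.5% and 83.9% when centred on canonical genes.

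Odor against vehicle in libraries titled GFP+ called 0 probe sets with median centring and with the GC and 95th percentile floors, and 1 with the pool block or the trend. The interaction called 0 with the pool block and 2 with the 95th percentile floor. With the replicate number as a replicate block, odor in libraries titled GFP+ called 4 probe sets and the interaction 2, with 0 Ms4a genes in each. Uncalled odor differences in libraries titled GFP+ changed sign for Ms4a4c (0.0041 quantile, 0.0103 canonical, 0.0684 with the 95th percentile floor), Ms4a7 (0.0151 quantile, 0.0442 canonical) and Ms4a6c (0.26 with the 95th percentile floor). Uncalled interactions changed sign for Ms4a4b (0.0213 quantile, 0.0303 canonical), Ms4a6d (-0.16 and -0.12 with the floors at the median negative control and the GC background) and Ms4a6c (0.29 with the 95th percentile floor). The causes were not tested. Relations between Ms4a genes and lists that passed numbered 6 with treatment means taken out, by permutation p-values that are not exact in that setting.

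Leaving out 1 pool gave 3037 (without odor replicate 1) to 3967 probe sets called in the odor sort comparison, with 5 to 7 Ms4a genes, and 2722 to 3102 in vehicle, with 5 to 6. Odor in libraries titled GFP+ ranged from 0 to 3 calls. There the differences that changed sign ranged from -0.0489 to 0.67 for Ms4a3, -0.53 to 0.22 for Ms4a4b, -0.49 to 0.34 for Ms4a4c, -0.70 to 0.0871 for Ms4a6b, -0.67 to 0.0025 for Ms4a6c, -0.72 to 0.27 for Ms4a6d and -0.15 to 0.29 for Ms4a7. In libraries titled GFP- they ranged from -0.11 to 0.24 for Ms4a3, -0.34 to 0.12 for Ms4a4b and -0.13 to 0.44 for Ms4a7. Interactions ranged from -0.225 to 0.786 for Ms4a3, -0.345 to 0.56 for Ms4a4b, -0.405 to 0.965 for Ms4a4c, -0.48 to 0.42 for Ms4a6d and -0.585 to 0.222 for Ms4a7. With the pool as a replicate block, no other Ms4a call in the sort comparisons changed besides that of Ms4a7 in odor.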
